A study of Mus musculus with 12 samples.

Results

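The genes described here control passage through G1, the phase in which a cell commits to a new round of DNA replication. They are the D-type cyclin genes Ccnd1, Ccnd2 and Ccnd3, the E-type cyclin gene Ccne1, the cyclin-dependent kinase genes Cdk4 and Cdk6, and Cdkn1b, which encodes the kinase inhibitor p27. They were taken by name as the 7 G1 control genes of the set, with all 23 probe sets that the platform annotation assigns to one of them, out of 18193 genes and 34945 probe sets with 1 gene symbol.

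D-type cyclins bind Cdk4 and Cdk6, and the active kinases phosphorylate the retinoblastoma protein. E2F factors are released and switch on genes of DNA replication, among them Ccne1, whose product then activates Cdk2. Protein p27 blocks Cdk2 complexes and is itself held by cyclin D complexes. In mouse embryonic stem cells cyclin E is known to be abundant and D-type cyclins low, and D-type cyclin levels rise as the cells leave pluripotency.

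Mouse embryonic stem cells of strain 129 were left to differentiate without LIF as floating aggregates, termed embryoid bodies, up to day 2.5. Their genotypes were Trim33-KD (Trim33 knocked down), Smad4-null and WT (wild type). Embryoid bodies of each genotype were given activin (ac, 50 ng/ml) or SB431542 (SB), a blocker of the activin and nodal type I receptors, listed in the labels at 10 mM, for 2 h. The 6 groups, Trim33-KD-ac, Trim33-KD-SB, Smad4-null-ac, Smad4-null-SB, WT-ac and WT-SB, had 2 Affymetrix arrays each. No embryoid bodies without treatment were included, so a treatment difference is activin relative to receptor blockade. Whether the genotypes came from one parental line, how the knock-down was made, how many clones were used and whether replicates were separate cultures are not given in the sources used here. The p-values may therefore measure only technical spread, and each mutant line and its genotype cannot be told apart.

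Mean log2 Trim33 signal was 10.18 ± 0.23 in Trim33-KD and 11.72 ± 0.16 in WT (SD, n = 4). Smad4 signal averaged 12.17 ± 0.05 in Smad4-null and 11.96 ± 0.07 in WT arrays, so the Smad4 probe set did not check that label. The pluripotency and epiblast markers Pou5f1, Sox2, Nanog, Fgf5, Dnmt3b and Utf1 were above a linear signal of 64 on all 12 arrays. Their levels were not alike in all genotypes, as given below with the other markers. Markers of other cells were mixed. Afp and Ttr (extraembryonic endoderm), Elf5 and Gata3 (trophectoderm) and Col1a1 and Postn (fibroblasts) were above 64 on 0 arrays. But Dab2 of the first list, Hand1 and Krt7 of the second and Col1a2 and Thy1 of the third were above it on all 12. Gata4 and Gata6 of the first list were above it on 10 and Sox17 on 7, and Cdx2 of the second on 8. The fibroblast markers Dcn and Col3a1 were above it on 4 and 1, with Dcn from 2.12 to 8.11 in log2 signal. Smad4-null-ac replicate 1 and WT-SB replicate 2 stood apart with a narrow spread of signal (SD of log2 signal 3.13 and 3.07, against 3.24 to 3.39 elsewhere).

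Values below are the deposited log2 signals, and differences are in log2 units, in which 1 is a doubling. Each gene is represented by its brightest probe set unless another is named, and a level of one probe set is not compared with that of another. For all 7 genes this probe set had a mean signal in the upper 50%. Of the 23 probe sets 18 had a mean log2 signal above 6, the log2 of 64. All differences were tested with limma in 1 fit of all 12 arrays, and a gene was called at an adjusted p (Benjamini-Hochberg over all 18193 genes) under 0.05.

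**Figure D1:**
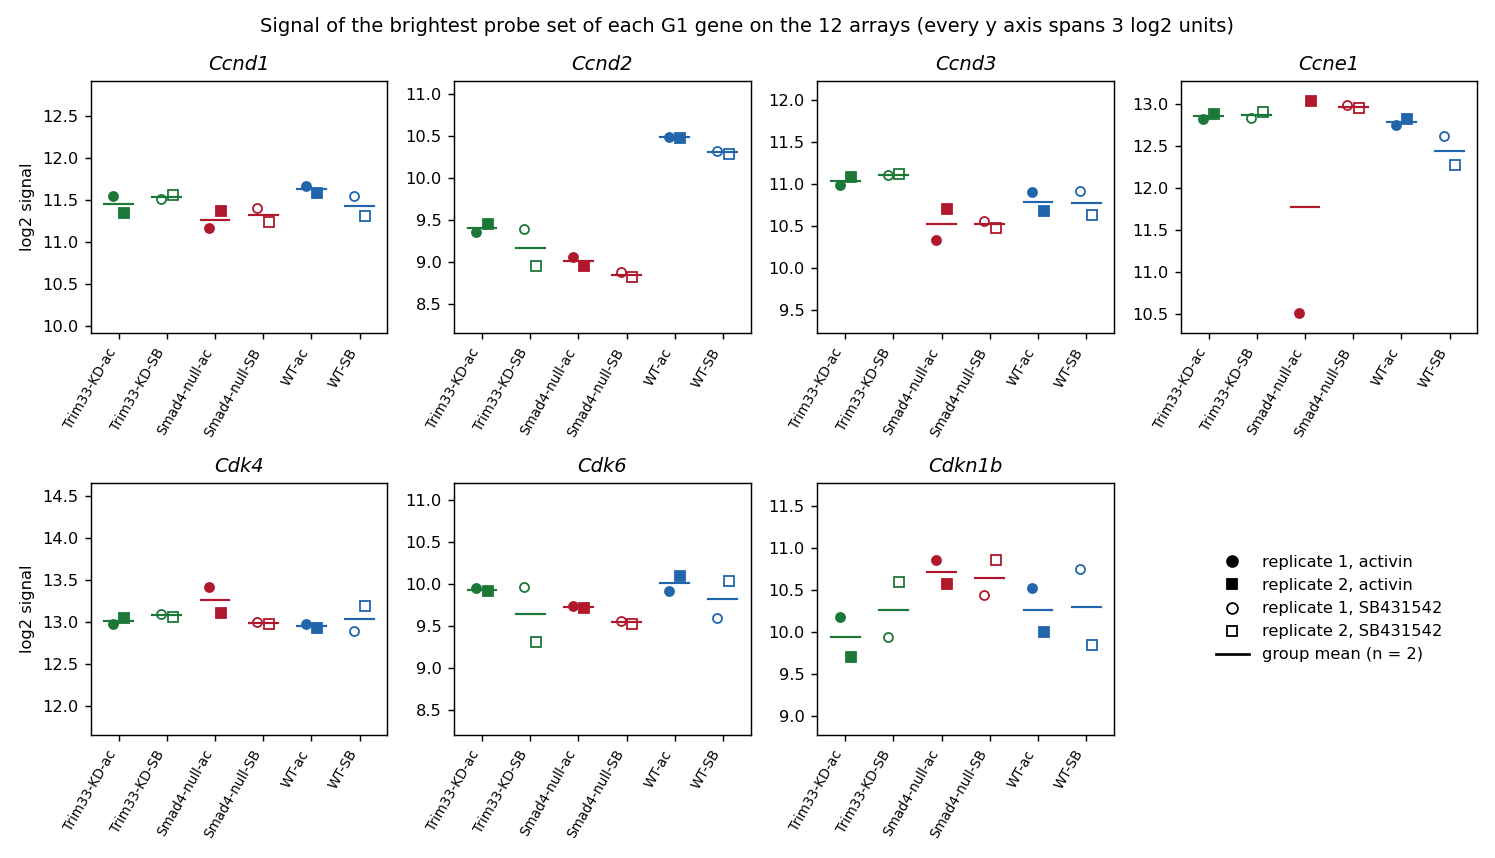
Log2 signal of the brightest probe set of each G1 gene on each of the 12 arrays, by group; filled symbols are activin, open symbols SB431542, circles replicate 1, squares replicate 2 and lines the group mean (n = 2). Ccnd2 separates Trim33-KD and Smad4-null arrays (8.82 to 9.45) from WT arrays (10.29 to 10.49), and 1 Ccne1 value, on Smad4-null-ac replicate 1, lies at 10.52.

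RefSeq promoter sequences (assembly GRCm38.p6, 250 bases before to 50 bases after a gene's start) were held for 5 of the 7 genes, Ccnd3, Ccne1, Cdk4, Cdk6 and Cdkn1b, with 6 entries. They were searched on both strands for the E box CACGTG, bound by Myc, for the E2F sites TTTCCCGC and TTTGGCGC, for the TCF site CTTTGA and for the Smad palindrome GTCTAGAC; no matches found overlapped. The entries of Cdk4 and Cdk6, the kinase pair of the D-type cyclins, held the E box and are printed with it in capitals, since Myc is among the regulators that differed between the genotypes. The Cdk4 entry lies at chr10:127063285-127063584 and that of Cdk6 at chr5:3343643-3343942, both on the plus strand.
Cdk4: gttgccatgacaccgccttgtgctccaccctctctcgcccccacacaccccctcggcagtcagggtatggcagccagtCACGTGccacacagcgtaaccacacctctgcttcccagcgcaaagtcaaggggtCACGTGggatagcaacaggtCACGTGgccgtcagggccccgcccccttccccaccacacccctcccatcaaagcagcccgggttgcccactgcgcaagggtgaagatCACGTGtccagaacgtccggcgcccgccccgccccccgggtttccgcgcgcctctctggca
Cdk6: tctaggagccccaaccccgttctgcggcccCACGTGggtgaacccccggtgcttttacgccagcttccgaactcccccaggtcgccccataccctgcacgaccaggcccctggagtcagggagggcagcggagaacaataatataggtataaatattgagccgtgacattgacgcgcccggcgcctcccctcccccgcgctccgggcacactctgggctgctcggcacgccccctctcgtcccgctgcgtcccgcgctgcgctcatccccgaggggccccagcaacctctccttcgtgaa
The Cdk4 sequence had 4 E boxes, whose first bases lay at -172, -118, -98 and -11 from the start, and 1 TCF match at -51. The Cdk6 sequence had 1 E box, at -220. Of 32851 promoter entries of this length 7.15% held an E box, 0.0244% held 4 or more, 16.0% a TCF match, 1.56% an E2F match and 0.213% the Smad palindrome. The entries of Ccnd3, Ccne1 and Cdkn1b held none of these motifs, which says only that these letters are not in these windows.

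Ccnd2, the gene of a D-type cyclin that growth factor and developmental signals control, was the one gene of the 7 called against WT in either mutant, and it was low in both. Its signal was 9.36 and 9.45 in Trim33-KD-ac, 9.39 and 8.96 in Trim33-KD-SB, 9.06 and 8.96 in Smad4-null-ac, 8.89 and 8.82 in Smad4-null-SB, 10.49 and 10.48 in WT-ac and 10.33 and 10.29 in WT-SB arrays (replicates 1 and 2). All 4 arrays of each mutant lay below all 4 WT arrays. The order of the group means was WT-ac (10.49), WT-SB (10.31), Trim33-KD-ac (9.41), Trim33-KD-SB (9.18), Smad4-null-ac (9.01) and Smad4-null-SB (8.85). Trim33-KD-ac and Trim33-KD-SB overlapped, as did Trim33-KD-SB and Smad4-null-ac, and the other neighbours did not.

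In Smad4-null embryoid bodies Ccnd2 fell by 1.47 on the log2 scale (SE 0.105, 95% interval -1.71 to -1.22), to 36.1% of the WT signal (limma adjusted p = 0.000247, lower in 4 of 4 arrays). In Trim33-KD it fell by 1.11 (SE 0.105, 95% interval -1.35 to -0.86), to 46.4% of WT (limma adjusted p = 0.0116, lower in 4 of 4 arrays). Both differences share the WT arrays. Ccnd2 was thus 1 of 7 genes called in each comparison. Over all genes limma called 18.4% in Smad4-null against WT (7.12% higher, 11.3% lower) and 0.649% between Trim33-KD and WT (0.445% raised and 0.203% lowered). Arrays did not overlap for 25.8% and 12.4% of all genes in these comparisons. In whole embryoid bodies, fewer cells with Ccnd2 RNA and less of it per cell cannot be told apart.

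The Smad4-null difference was as large within either treatment, at -1.48 with activin (limma adjusted p = 0.00248) and -1.46 with SB431542 (limma adjusted p = 0.00291), where 9.29% and 9.1% of all genes were called, and it stayed past the threshold in all 26 alternative settings. The Trim33-KD difference was -1.08 with activin and -1.14 with SB431542, but with 2 arrays a side limma's adjusted p was 0.104 and 0.103; only 0.0055% of genes passed in the activin arrays and 0 in the SB431542 arrays. It also missed the threshold without Trim33-KD-ac replicate 2 (-1.13, limma adjusted p = 0.0546), without WT-ac replicate 1 (-1.11, limma adjusted p = 0.0518) and without both arrays of narrow spread (-1.12, limma adjusted p = 0.0831). Its adjusted p ran from 0.00018 to 0.109 over the alternatives, and its value from -1.22 to -0.91.

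Summed markers of some other cells were also low in Smad4-null arrays. Of 4 primitive streak markers 3 were measured (Mixl1, Eomes and Fgf8), none at 0, and their summed linear signal was 2442 to 7215 on Trim33-KD, 433 to 755 on Smad4-null and 4540 to 10816 on WT arrays. All 3 were called lower in Smad4-null against WT (-4.26 to -3.37), and 0 were called in Trim33-KD against WT. The 5 trophectoderm markers summed to 471 to 648 on Trim33-KD, 229 to 306 on Smad4-null and 423 to 590 on WT arrays; of these genes 1 was called, Cdx2 (-2.95), and the median difference of Smad4-null minus WT was -0.07. The 6 extraembryonic endoderm markers summed to 705 to 799 on Trim33-KD, 616 to 737 on Smad4-null and 794 to 954 on WT arrays, with 2 of 6 called lower, Sox17 and Gata6. The 6 fibroblast markers summed to 482 to 537 on Trim33-KD, 496 to 607 on Smad4-null and 487 to 601 on WT arrays. In Smad4-null against WT limma raised 1 of these 6 and lowered 2 (-0.76 to 3.27). Of the 6 pluripotency and epiblast markers limma raised 2 and lowered 3 in Smad4-null against WT (-1.43 to 0.82), and called 0 in Trim33-KD against WT. Over all genes 7.12% were raised and 11.3% lowered in Smad4-null against WT, and 0.649% were called in Trim33-KD against WT. The part of these cells, or of the pluripotent state, in the Ccnd2 difference was not tested.

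All 7 Ccnd2 probe sets pointed the same way. Between Smad4-null and WT they ran from -2.35 to -0.89, and from -1.89 to -0.95 on the 5 with a mean above 6. Of the 7, 5 were called over all 34945 probe sets (background 12.3%), and in 6 of 7 the arrays did not overlap. The dimmest, with a mean of 3.99, gave -2.35 and was among those called, with overlapping arrays. Between Trim33-KD and WT the 7 probe sets ran from -1.97 to -0.73, and the 5 brighter ones from -1.17 to -0.73. Of the 7, 2 were called (background 0.155%), and again 6 of 7 did not overlap. Over all genes the arrays did not overlap for 25.8% and 12.4% in these comparisons, and the share over all probe sets was not computed. The 7 probe sets read RNA of the same gene on the same arrays, so their counts are not independent. The second brightest had 9.15, 9.10, 9.05 and 8.87 on Trim33-KD arrays, 8.28, 8.32, 8.38 and 8.32 on Smad4-null arrays and 10.38, 10.35, 10.18 and 9.94 on WT arrays (ac replicates 1 and 2, then SB replicates 1 and 2). On this probe set Trim33-KD held an intermediate level that overlapped neither of the other genotypes.

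**Figure D2:**
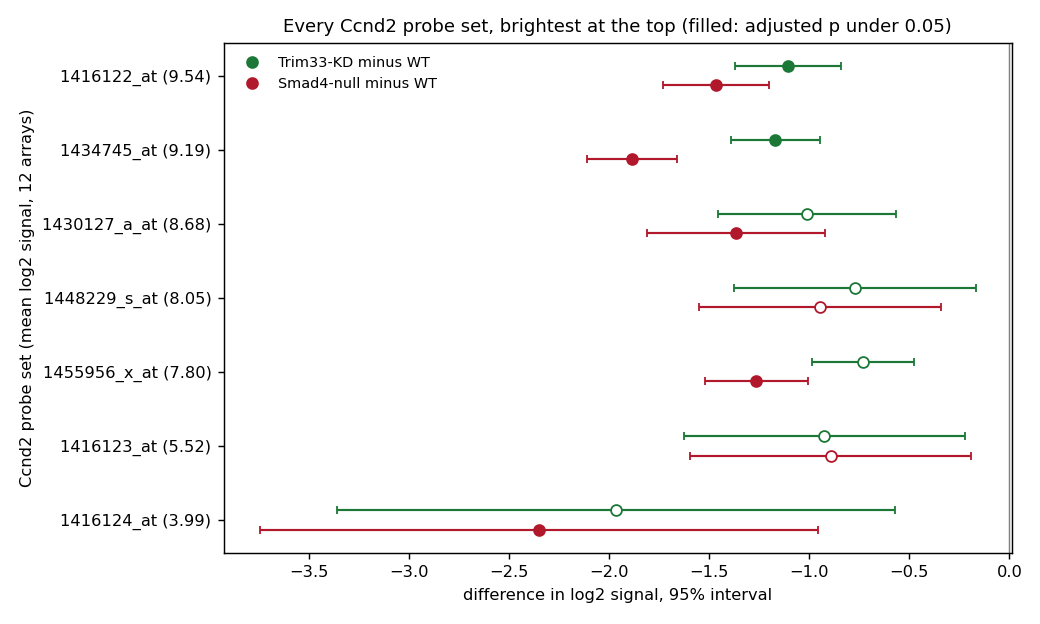
Difference in log2 signal of each of the 7 Ccnd2 probe sets, with 95% intervals, for Trim33-KD minus WT (above, green) and Smad4-null minus WT (below, red), in order of mean signal; filled symbols have a limma adjusted p under 0.05 over all 34945 probe sets. All 14 differences are below 0, from -2.35 to -0.73. The dimmest probe sets, with means of 5.52 and 3.99, lie below the log2 signal of 6.

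The difference between the mutants depended on the Ccnd2 probe set. On the brightest, Trim33-KD exceeded Smad4-null by 0.36 (SE 0.105, 95% interval 0.11 to 0.61, limma adjusted p = 0.0534), which passed under 5 of 26 alternatives. On the second brightest it was 0.72 (SE 0.10, limma adjusted p = 0.00384 over all probe sets) and on the fifth brightest 0.53 (SE 0.11, limma adjusted p = 0.0203). The other 4 probe sets were not called, and ran from -0.03 to 0.39. On the brightest, the mutants overlapped only through Trim33-KD-SB replicate 2 (8.96). That array had the highest Actb 3' minus 5' difference of the set (0.74), and the part of RNA quality in Ccnd2 signal was not tested.

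Ccnd3, which encodes the D-type cyclin prominent in lymphoid cells, had a different order. Its signal was 10.99 and 11.08 in Trim33-KD-ac, 11.11 and 11.11 in Trim33-KD-SB, 10.33 and 10.71 in Smad4-null-ac, 10.56 and 10.47 in Smad4-null-SB, 10.91 and 10.68 in WT-ac and 10.91 and 10.63 in WT-SB arrays. The 4 Trim33-KD arrays were the highest of all 12. Ccnd3 was 0.55 higher in Trim33-KD than in Smad4-null (SE 0.12, 95% interval 0.28 to 0.83, limma adjusted p = 0.0161, higher in 4 of 4 arrays), and was the 1 gene of 7 called there, where limma called 18.4% of all genes (11.1% raised and 7.32% lowered) and 27.2% had arrays that did not overlap. Within the activin arrays it was 0.51 (limma adjusted p = 0.102) and within the SB431542 arrays 0.59 (limma adjusted p = 0.0740), where 9.43% and 8.43% of all genes were called.

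Against WT neither mutant was called for Ccnd3. Trim33-KD minus WT was 0.29 (95% interval 0.02 to 0.56, limma adjusted p = 0.267), with all 4 Trim33-KD arrays above all 4 WT arrays, as 12.4% of all genes had in either direction. Smad4-null minus WT was -0.26 (95% interval -0.53 to 0.01, limma adjusted p = 0.181). The call between the mutants was lost without Trim33-KD-ac replicate 2 (0.53, limma adjusted p = 0.0552) and without Smad4-null-SB replicate 2 (0.53, limma adjusted p = 0.0624), and its adjusted p ran from 0.00136 to 0.148 over the alternatives. The other 2 Ccnd3 probe sets had means under 6 and pointed the other way, at -1.57 and -1.28, without a call.

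Ccnd1, the D-type cyclin gene best known as a target of mitogen signals, varied little. Its 12 arrays lay between 11.17 and 11.67, with means of 11.45 in Trim33-KD-ac, 11.53 in Trim33-KD-SB, 11.27 in Smad4-null-ac, 11.32 in Smad4-null-SB, 11.63 in WT-ac and 11.43 in WT-SB. WT-ac alone did not overlap the next group in order, Trim33-KD-SB. Smad4-null minus WT was -0.24 (SE 0.10, 95% interval -0.47 to -0.0041, limma adjusted p = 0.157) and Trim33-KD minus WT was -0.04 (95% interval -0.27 to 0.19, limma adjusted p = 0.874). The other Ccnd1 probe sets gave -0.42 and 0.07 for Smad4-null minus WT, the first with non-overlapping arrays and a limma adjusted p of 0.0513 over all probe sets. Arrays did not overlap for 25.8% of all genes in this comparison.

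The Ccne1 result rested on the choice of probe set. On the brightest the signal was 12.83 and 12.88 in Trim33-KD-ac, 12.84 and 12.91 in Trim33-KD-SB, 10.52 and 13.04 in Smad4-null-ac, 12.99 and 12.96 in Smad4-null-SB, 12.75 and 12.82 in WT-ac and 12.62 and 12.28 in WT-SB arrays. Smad4-null-ac replicate 1 was low, and its partner was the highest array of all. This gave a residual SD of 0.73, above that of 80.7% of genes, and wide intervals: -1.34 to 0.86 for Smad4-null minus WT and -0.85 to 1.35 for Trim33-KD minus WT. The suffix of this probe set marks probes that may cross-hybridize. The brightest Cdk4 probe set and the fifth brightest of Ccnd2 carry the same suffix.

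The other Ccne1 probe set did not have the low value, with 11.78 and 11.77 in Smad4-null-ac. Over the 12 arrays it lay between 11.60 and 12.04. Its difference was 0.22 for Trim33-KD minus WT (SE 0.10, limma adjusted p = 0.340 over all probe sets) and -0.0034 for Smad4-null minus WT (SE 0.10, limma adjusted p = 0.990). In the first comparison its arrays did not overlap, as for 12.4% of all genes. With Smad4-null-ac replicate 2 left out, the brightest probe set was called in 3 comparisons: -0.87 for Smad4-null minus WT, 1.12 for Trim33-KD minus Smad4-null and -2.45 for activin minus SB431542 in Smad4-null (limma adjusted p = 0.00525, 0.00269 and 0.0286). In that setting the low array alone stands for its group.

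**Figure D3:**
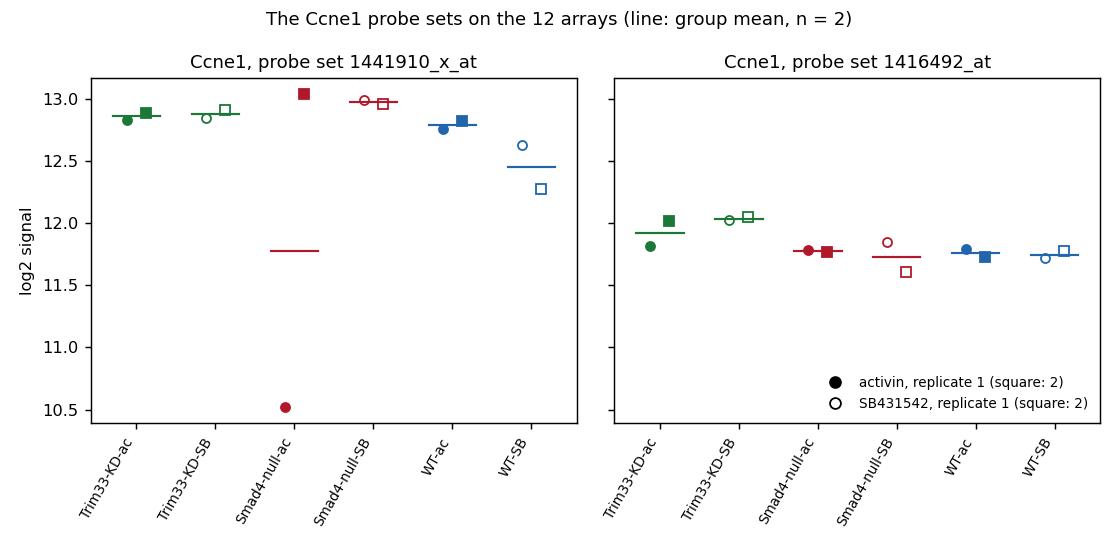
Log2 signal of both Ccne1 probe sets on the 12 arrays, by group; filled symbols are activin, open symbols SB431542, circles replicate 1, squares replicate 2 and lines the group mean (n = 2). Smad4-null-ac replicate 1 lies at 10.52 on the brightest probe set, far below its partner at 13.04, and at 11.78 on the other, beside its partner at 11.77.

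Neither kinase gene was called between genotypes. Cdk4, the main catalytic partner of D-type cyclins, ranged over the arrays from 12.89 to 13.42, with the highest value on Smad4-null-ac replicate 1. Trim33-KD minus WT was 0.05 (95% interval -0.19 to 0.29) and Smad4-null minus WT 0.13 (95% interval -0.11 to 0.36), so a change of 1 in either direction lay outside both intervals. The other Cdk4 probe sets gave -0.0017 and 0.01 for Trim33-KD minus WT and 0.07 and 0.04 for Smad4-null minus WT.

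Cdk6, the second kinase partner, ranged from 9.31 on Trim33-KD-SB replicate 2 to 10.10 on WT-ac replicate 2. Its differences were -0.13 for Trim33-KD minus WT (95% interval -0.50 to 0.25) and -0.28 for Smad4-null minus WT (95% interval -0.65 to 0.10). Its probe sets disagreed in sign for Smad4-null minus WT, at -0.28, -0.31 and 0.21. The dimmest was lower in Trim33-KD than in Smad4-null by a difference of -0.75 (SE 0.19, limma adjusted p = 0.0388 over all probe sets), with overlapping arrays, while the other 2 gave 0.15 and 0.22. The Cdk6 signal of Trim33-KD-SB replicate 2 was the lowest on the 2 brighter probe sets; that array also had the highest Actb 3' minus 5' difference of the set (0.74, against 0.31 to 0.67 elsewhere), and the part of RNA quality was not tested.

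Cdkn1b, the p27 gene, had the largest residual SD of the 7 genes after Ccne1 (0.41). Its signal was 10.18 and 9.70 in Trim33-KD-ac, 9.94 and 10.59 in Trim33-KD-SB, 10.85 and 10.57 in Smad4-null-ac, 10.44 and 10.85 in Smad4-null-SB, 10.53 and 10.01 in WT-ac and 10.76 and 9.84 in WT-SB arrays. Within WT-SB the 2 arrays differed by more than any 2 group means. Differences were -0.18 for Trim33-KD minus WT (95% interval -0.80 to 0.45, limma adjusted p = 0.776), 0.40 for Smad4-null minus WT (95% interval -0.23 to 1.02, limma adjusted p = 0.375) and -0.58 for Trim33-KD minus Smad4-null (95% interval -1.20 to 0.05, limma adjusted p = 0.190). Every pair of neighbouring groups in its order overlapped. Post-translational control, by which p27 is largely set, is not measured by these arrays.

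No gene of the 7 was called for activin against SB431542 at 2 h. Limma called 0 of 7 in Trim33-KD, in Smad4-null, in WT and in the average over the genotypes, and 0 of 7 had an unadjusted p under 0.05 in any of these. Over all genes limma called 0.011%, 0.011%, 0.033% and 0.0824%, and 766, 1239, 731 and 822 of 18193 genes had an unadjusted p under 0.05. The differences had medians over the 7 genes of -0.07 in Trim33-KD, 0.06 in Smad4-null and 0.18 in WT, against medians of all genes of -0.05, 0.06 and -0.05.

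On its brightest probe set Ccnd2 had positive differences without a call, at 0.23 in Trim33-KD, 0.16 in Smad4-null and 0.18 in WT, and at 0.19 on average (SE 0.09, 95% interval -0.01 to 0.39, limma adjusted p = 0.999). On that probe set the activin arrays lay above the SB431542 arrays in Smad4-null and in WT, as 43.8% and 26.7% of all genes had in either direction, and overlapped them in Trim33-KD, where 30.4% of all genes did not overlap. The 7 Ccnd2 probe sets disagreed in Smad4-null, where 3 were positive and 4 negative (-1.85 to 0.17). The 5 with a mean above 6 ran from -0.45 to 0.17 there. The second brightest (-0.05) and the third brightest (-0.45) had both activin arrays below both SB431542 arrays. In WT 7 of 7 were positive (0.14 to 0.86) and in Trim33-KD 6 of 7 (-0.12 to 0.80), none of them called. The 5 brighter ones ran from 0.14 to 0.59 in WT and from 0.12 to 0.45 in Trim33-KD. With the genotypes pooled, 0 of 7 had non-overlapping arrays, against 0.0879% of all genes. This count carries nothing on the treatment. On the brightest probe set the WT-SB arrays lay above all mutant activin arrays, so pooled arrays had to overlap at treatment differences of this size. Cdk6 stood at 0.30 in Trim33-KD, 0.18 in Smad4-null and 0.20 in WT, with an average of 0.23 (95% interval -0.08 to 0.53). The average was 0.02 for Ccnd1, -0.02 for Ccnd3, 0.04 for Cdk4 and -0.10 for Cdkn1b. For the D-type cyclins and Cdk4 the 95% intervals of the average together spanned -0.24 to 0.39. Ccne1 had -0.29 on its brightest probe set and -0.02 on the other (SE 0.08).

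No difference between the genotypes' responses was called. Limma called 0 of 7 genes, and 0 of all genes, for the Smad4-null response minus the WT response and for the Trim33-KD response minus the WT response; 0 of 7 had an unadjusted p under 0.05, against 1317 and 485 of 18193 genes. For Ccnd2 the first difference was -0.02 (95% interval -0.51 to 0.47) and the second 0.05 (95% interval -0.44 to 0.54), on the brightest probe set. The first difference varied with the probe set, from -2.71 to 0.0031 over the 7 and from -1.04 to 0.0031 on the 5 with a mean above 6. It was -0.36 on the second brightest (95% interval -0.80 to 0.09). On the third brightest it was -1.04 (95% interval -1.93 to -0.15, limma adjusted p = 0.727 over all probe sets). The second ran from -0.99 to 0.60, and 0 of 7 probe sets were called in either.

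**Figure D4:**
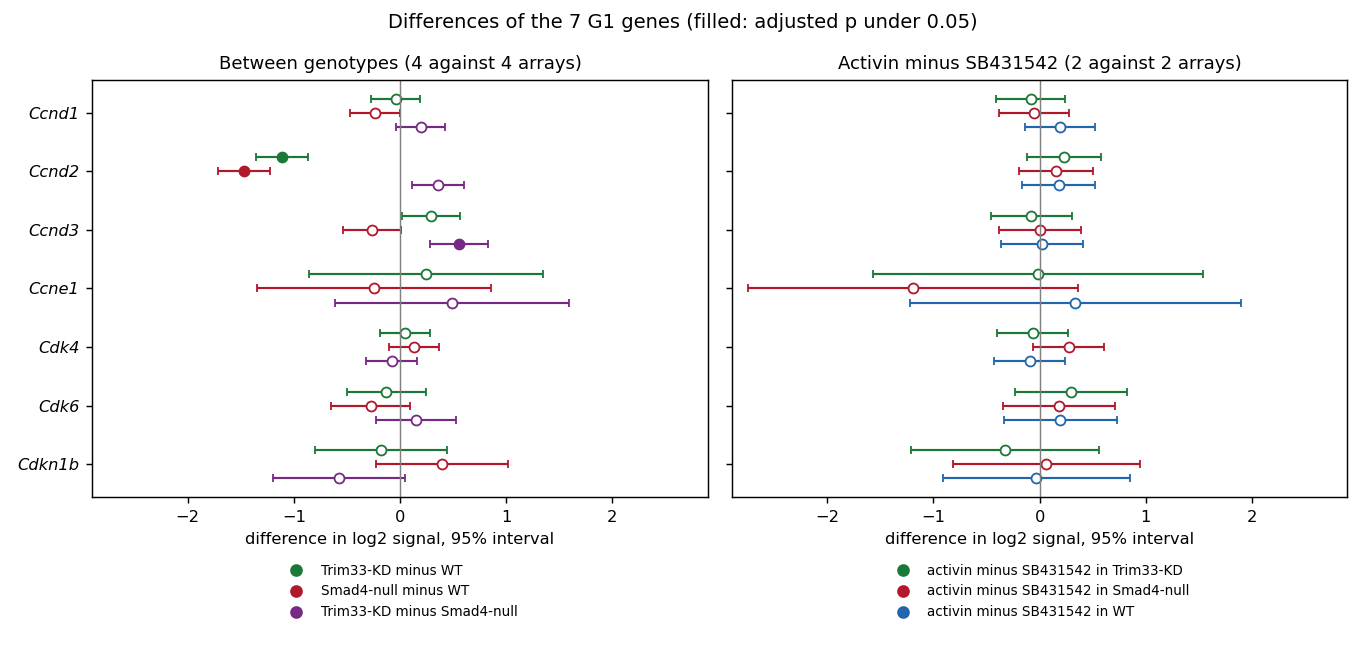
Differences in log2 signal of the 7 G1 genes with 95% intervals, between genotypes (left, 4 against 4 arrays) and for activin minus SB431542 within each genotype (right, 2 against 2 arrays); filled symbols have a limma adjusted p under 0.05 over all genes. Filled are Ccnd2 in Trim33-KD minus WT (-1.11) and Smad4-null minus WT (-1.47) and Ccnd3 in Trim33-KD minus Smad4-null (0.55).

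The rest of the G1 machinery was read from a list of 28 further genes, all measured. Between Trim33-KD and WT limma raised 0 and lowered 0 of them, against 0.445% and 0.203% of all genes. The median was 0.03 against -0.04 for all genes, and the range was -0.34 to 0.58. Between Smad4-null and WT 4 rose and 2 fell, or 14.3% and 7.14% of the list against 7.12% and 11.3% of all genes, with a median of 0.05 against -0.03 for all genes. Those that rose were Cdkn2a, the locus of the inhibitors p16 and Arf (1.59, from a mean signal of 5.97), E2f8, an E2F repressor gene (0.96), Tfdp2, an E2F partner gene (0.69), and Mnat1, a subunit gene of the Cdk-activating kinase (0.33). Cdkn1a, the p21 inhibitor gene, fell by 0.97 and E2f3, an E2F activator gene, fell by 0.95 (limma adjusted p = 0.00641 and 0.00179).

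Regulators of D-type cyclin genes and proteins were read from a list of 13. Between Trim33-KD and WT limma raised 0 and lowered 0, against 0.445% and 0.203% of all genes, with a median of 0.09 and a range of -1.40 to 0.95. Between Smad4-null and WT 5 fell and 1 rose, or 38.5% and 7.69% of the list against 11.3% and 7.12% of all genes, with a median of -0.54 against -0.03 for all genes. The inhibitor of DNA binding genes Id1, Id2 and Id3 fell, with differences of -3.34, -1.31 and -1.40; Fbxo4, a ubiquitin ligase gene for cyclin D1, fell by 0.83 from a mean signal of 6.03, and Myc fell by 0.80. Mycn, the paralog of Myc, rose by 0.57 (limma adjusted p = 0.00198). Cdk4, with its 4 E boxes, had 0.13 in this comparison, without a call. Binding of Myc to these E boxes was not measured, and a link between Myc and Cdk4 signal was not tested. With activin, averaged over the genotypes, Myc rose by 0.76 against SB431542 (SE 0.08, limma adjusted p = 0.0344), the 1 gene of the 13 that was called, where 0.0715% of all genes were raised.

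Most replication and division genes had small positive differences in Smad4-null against WT. Of 15 measured S phase genes 15 were positive, 3 rose and 0 fell, or 20% raised against 7.12% of all genes, with a median of 0.18 against -0.03 for all genes: the replication licensing gene Cdt1 (0.63), its loading partner Cdc6 (0.42) and the ribonucleotide reductase gene Rrm2 (0.29). Of 13 measured mitosis genes 12 were positive and 1 rose, or 7.69% of the list, the topoisomerase gene Top2a (0.25, limma adjusted p = 0.0498), and the median was 0.11. Between Trim33-KD and WT 0 of either list were called, against 0.649% of all genes, with medians of 0.06 and -0.04. Ccnb1, of the mitosis list, was not analysed here.

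**Figure D5:**
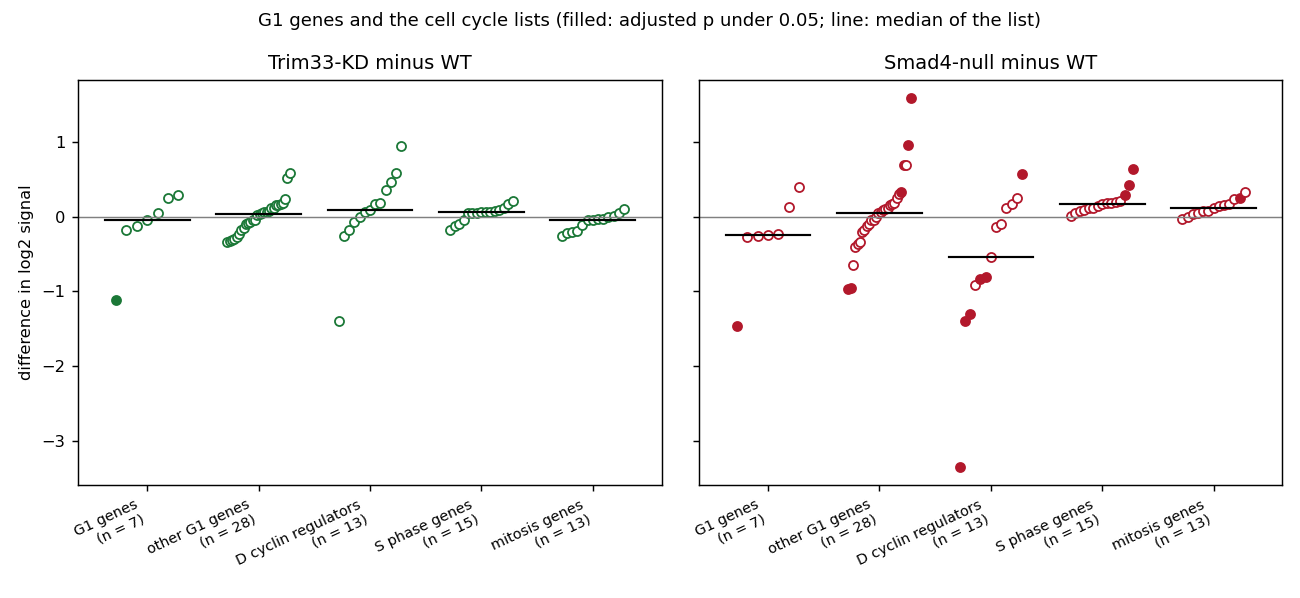
Difference in log2 signal of each gene of the G1 set and of 4 further cell cycle lists, for Trim33-KD minus WT (left) and Smad4-null minus WT (right); filled symbols have a limma adjusted p under 0.05 over all genes, and lines are list medians. Ccnd2 (-1.11) is the one filled symbol on the left; on the right the lowest value is Id1 (-3.34).

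For each of the 7 genes the 3 genes of most similar profile were taken among 9095 bright genes (mean signal in the upper 50%), by Pearson correlation over the 12 arrays, which share their groups and their array scaling. For Ccnd2 they were Yaf2 (0.971), Mllt1 (0.970) and Celf2 (0.965). In Smad4-null against WT all 3 were called low, at -0.51, -0.69 and -1.17. Against WT in Trim33-KD 1 was, the RNA-binding protein gene Celf2 (-0.81). These genes were picked for likeness to Ccnd2 on the same arrays, so their low signal follows from the choice and is no separate result. For Ccnd3 they were Serpinh1 (0.948), a collagen chaperone gene, Atp6v0e (0.942) and Cyfip2 (0.933). For Ccnd1 they were Stard7 (0.933), Ets1 (0.929) and Cobll1 (0.920), and for Ccne1 on its brightest probe set Chrac1 (0.964), Aco1 (0.932) and Bpnt2 (0.923). The Cdk4 profile was most like those of Cox8a (0.971), Rpl41 (0.965) and Vdac1 (0.963), the Cdk6 profile like Pik3ca (0.940), Xpo6 (0.901) and Tent4a (0.891), and the Cdkn1b profile like Kank3 (0.907), Nipsnap3b (0.874) and Lactb2 (0.873). The genes like Ccne1 spread widest within Smad4-null-ac (SD 0.64, 0.46 and 0.58), the group of the low Ccne1 array. Those like Cdk4 did so within Smad4-null-ac (0.34, 0.58 and 0.30) and WT-SB (0.33, 0.47 and 0.44), the groups of the narrow-spread arrays. Chrac1, Aco1 and the genes like Cdk4 were read on probe sets with the suffix of possible cross-hybridization. The part of single arrays in these likenesses was not tested.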

How the data were processed

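RNA from 12 samples was hybridized to 12 Affymetrix arrays. Per the labels, the deposited values are log2 signals for each probe set; taken to the linear scale, the mean of every array is 500 once 2% is trimmed at both ends. How probes were summarized is not stated in the labels, and limma is named without a version by the submitters' processing notes. Values were used as deposited, with no pseudocount, and precision is limited by the number of arrays.

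Of 45101 probe sets, the 34945 with exactly 1 symbol in the platform annotation were kept; 64 controls, 932 with several symbols and 9160 with none were left out. The probe set of highest mean stood for each of 18193 genes. A model with 1 mean per group (6 residual degrees of freedom) was fitted in R 4.3.3 with limma 3.58.1 (lmFit, eBayes), adjusting over all genes by Benjamini-Hochberg, after the fit had been tested on simulated data. Intervals are 95%. Genotype differences average the treatments.

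Named were all 7 genes with every probe set, Smad4 and Trim33, the cell type markers, up to 4 called genes per direction of each list, and the 3 most correlated genes. Single probe sets dwelt on were picked after the values were seen. The genes, lists and alternatives were chosen with earlier results of these data known. The labels state no pairing of arrays by replicate number, and the arrays were fitted as unpaired. Deviations of same-numbered arrays correlated between -0.30 and 0.39 over 15 pairs of groups, above 0.1 in 6. The highest values were within a genotype, between WT-ac and WT-SB (0.39) and between Trim33-KD-ac and Trim33-KD-SB (0.34). Within Smad4-null the value was -0.19. Pairing within single genotypes was not tested. Alternatives changed the scaling, the probe set rule, the filter, the prior, the arrays used and the replicate block. Python 3.11.15 with matplotlib 3.10.9 drew the figures.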

Additional observations from a re-analysis of the deposited data

How the results depend on the processing

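Over 26 alternative settings, the call of Ccnd2 in Smad4-null minus WT held in all, with values from -1.50 to -1.41. The call of Ccnd2 in Trim33-KD minus WT was lost (0 of 7 genes called) with only the groups compared, after leaving out the 2 narrow-spread arrays, and with the activin or the SB431542 arrays only. Between Trim33-KD and Smad4-null, 2 genes (Ccnd2 and Ccnd3) were called with median centring, the upper 50% of genes, a floor of 64 and a trended and robust prior, and 0 when probe sets of a gene were averaged and with either treatment only. Averaging its probe sets turned Ccnd3 there to -0.76 (limma adjusted p = 0.148), since the dim probe sets enter. With each array left out, the count of called genes ran from 1 to 2 in Smad4-null minus WT, 0 to 1 in Trim33-KD minus WT, 0 to 2 in Trim33-KD minus Smad4-null and 0 to 1 for activin in Smad4-null, and was 0 throughout in the other treatment and response comparisons. With the replicate block the counts were 1, 1 and 1 in the genotype comparisons and 0 in the others, as without it. Differences that were not called changed sign in 118 of 1469 recomputed values. Median centring moved the median of all genes by 0.20 in Trim33-KD minus WT, 0.17 in Trim33-KD minus Smad4-null, 0.12 and -0.16 in the WT and Smad4-null responses and -0.28 and -0.12 in the Smad4-null and Trim33-KD response differences. With Ccne1 read from its other probe set, chosen after its values were seen, no call of the 7 genes changed. This setting, also run without Smad4-null-ac replicate 1, is counted among the 26. For the other genes it repeats the values of the reported fit or of the fit without that array.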

Other observations

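Dim probe sets of Ccnd3 and Cdkn1b, with a mean below a linear signal of 64, gave values that belong to no call above. The dimmest Ccnd3 probe set had 5.24, 5.14, 5.21 and 4.51 on Smad4-null arrays, all above the WT arrays at 3.07, 4.32, 2.77 and 3.56 (ac, then SB), a difference of 1.60 (SE 0.52, limma adjusted p = 0.0970 over all probe sets), opposite in sign to the bright Ccnd3 probe set. In this comparison 25.8% of all genes had arrays that did not overlap. The dim Cdkn1b probe set had an average activin difference of 0.35 (SE 0.16, not called), against -0.10 on the bright one.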
